A study of Mus musculus with 6 samples.

Results

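Elastic fibers give tissues their recoil, and microfibrils are the thread-like scaffolds on which they form. Elastin, the rubber-like core, is laid on microfibrils built of fibrillins, guided there by fibulins and by latent TGF-beta binding proteins, and crosslinked by lysyl oxidases. Microfibrils also occur without elastin, as in the oxytalan fibers of the periodontal ligament, and they hold latent growth factors of the TGF-beta family in the matrix.

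The genes described here were 10 structural genes of these fibers, taken by symbol. They were elastin (Eln), the fibrillins Fbn1 and Fbn2, the fibulins Fbln1, Fbln2 and Fbln5, the elastin microfibril interfacer Emilin1, and the microfibril-associated proteins Mfap2, Mfap4 and Mfap5. All 10 were found among the 23718 genes listed, and 9 of them reached the mean level required for testing. The samples were cells cut by laser from sections of the incisor, a tooth that keeps growing, of mice aged 1 month. The labels give the strain as C57BL/6, while the study's methods describe its mice as of mixed background. Mesenchymal stem cell (MSC) samples came from Gli1-CreER;tdT mice, in which tamoxifen given 1 day earlier lets a Gli1-driven recombinase switch on a red fluorescent protein. Samples of transit amplifying cells (TAC), which descend from the stem cells and divide quickly, were taken from Axin2-CreER;tdT mice treated alike. Both groups thus carried a tamoxifen-inducible Cre and the reporter, they differed in the driver, and no mice without Cre were part of the comparison. There were 3 samples per group, and the methods of the study give 3 mice per group.

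Values are normalized read numbers, scaled so that libraries can be compared for a gene, and not divided by gene length. The deepest libraries were those of replicate 3, with 59793645 (MSC) and 108156380 (TAC) estimated reads, against 20203159 to 25567244 in the other 4. Replicate 3 of both groups stood apart, with 43.0% and 28.1% of listed genes without a read in MSC and TAC against 6.65% to 8.12% in the other 4 libraries, so values are also given for replicates 1 and 2 together and for replicate 3. Levels are of the transcript, also where the protein is named, and are listed in the order of replicates 1, 2 and 3. Log2 differences are TAC minus MSC, from limma, of the value with 1 added. Of 10 dental mesenchyme markers all were listed, and Msx1 and Dlx3 were detected in every library, while Barx1 had no read in 1 of them. Epithelial transcripts were captured too, with the enamel protein gene Amelx at 80.6 to 2503 in MSC and 826 to 2209 in TAC. In such bulk samples, fewer cells of a type and less RNA per cell cannot be told apart.

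Sequences just upstream of the gene are shown for the 3 members with a RefSeq start closest to the deposited gene start, at distances of 1 (Fbln1), 65 (Fbln5) and 5 (Mfap2) bases. In Fbln1 and Fbln5 every MSC value was above every TAC value, though neither passed the adjusted threshold, and in Mfap2 the groups overlapped. Each run is the 250 bases before the start on GRCm38.p6, with the GC box GGGCGG or its reverse complement in capitals.
Fbln1, chr15:85205699-85205948, plus strand: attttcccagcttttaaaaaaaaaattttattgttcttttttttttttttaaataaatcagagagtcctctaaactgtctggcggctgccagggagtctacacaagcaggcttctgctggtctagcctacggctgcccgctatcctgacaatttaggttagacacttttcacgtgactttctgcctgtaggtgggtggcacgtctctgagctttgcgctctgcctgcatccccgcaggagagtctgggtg
Fbln5, chr12:101819120-101819369, minus strand: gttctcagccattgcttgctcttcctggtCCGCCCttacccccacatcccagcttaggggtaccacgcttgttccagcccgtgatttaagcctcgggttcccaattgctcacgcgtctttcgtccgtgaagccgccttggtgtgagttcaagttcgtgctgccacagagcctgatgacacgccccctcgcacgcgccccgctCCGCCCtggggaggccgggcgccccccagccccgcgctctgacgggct
Mfap2, chr4:141010174-141010423, plus strand: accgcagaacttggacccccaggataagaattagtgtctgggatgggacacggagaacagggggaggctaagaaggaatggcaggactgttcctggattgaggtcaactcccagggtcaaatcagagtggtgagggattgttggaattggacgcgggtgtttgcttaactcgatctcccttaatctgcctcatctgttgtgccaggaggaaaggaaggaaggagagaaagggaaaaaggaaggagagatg
The Fbln5 run held 2 GC boxes and the other pair held none, while 32.7% of 32851 such runs in the RefSeq table held at least 1. Each of these genes has another RefSeq start, 58 (Fbln1), 570 (Fbln5) and 262 (Mfap2) bases from the deposited one, and the runs before those starts held 1, 0 and 2 GC boxes, so the count depends on the start chosen. The E-box CACGTG occurred 1 time in the Fbln1 run and in 6.02% of all runs. The TATA motif TATAAA (12.4% of all runs) and the AP-1 motif TGAGTCA (4.46%), searched on both strands, occurred in none of the 3. These are matches of letters in these windows and were not tested for binding.

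The comparison asks how the stem cells and the dividing cells differ in the genes of the elastic fiber. Elastin fell in TAC, the fibulins had lower values there that did not pass the adjusted threshold, the means of Fbn1, Emilin1 and Mfap2 were close in both groups, and Fbn2 had its higher mean in TAC. In limma, Eln alone passed the adjusted threshold of 0.05 among the 9 members tested, where 0.422% of the 15391 genes tested passed, 0.383% lower and 0.039% higher in TAC. With an unadjusted p-value below 0.05, Eln, Fbln1, Fbln2 and Fbln5 made 4 members, against 11.9% of all genes. Each of them was lower in TAC, as were 6.43% of all genes, and 5.42% of all genes were higher. In these 4 every MSC value lay above every TAC value, which held for 12.2% of all genes, while 12.3% had the reverse and 24.5% either. In replicates 1 and 2 alone 6 members passed the adjusted threshold, against 44.2% of all genes, and with the library set as a batch term 6 did, against 11.8%. The first of these fits takes its error from the small spread between replicates 1 and 2. With the mean of replicates 1 and 2 as 1 sample, 0 members and 10 of the 15391 genes passed. The difference between groups itself differed between replicate 3 and the other replicates for 6 members, against 57.2% of all genes. The median log2 difference was -0.90 over the 9 members and 0.03 over all genes tested. It was below 0 for 6 of 9 members and for 7472 of all genes tested.

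**Figure D1:**
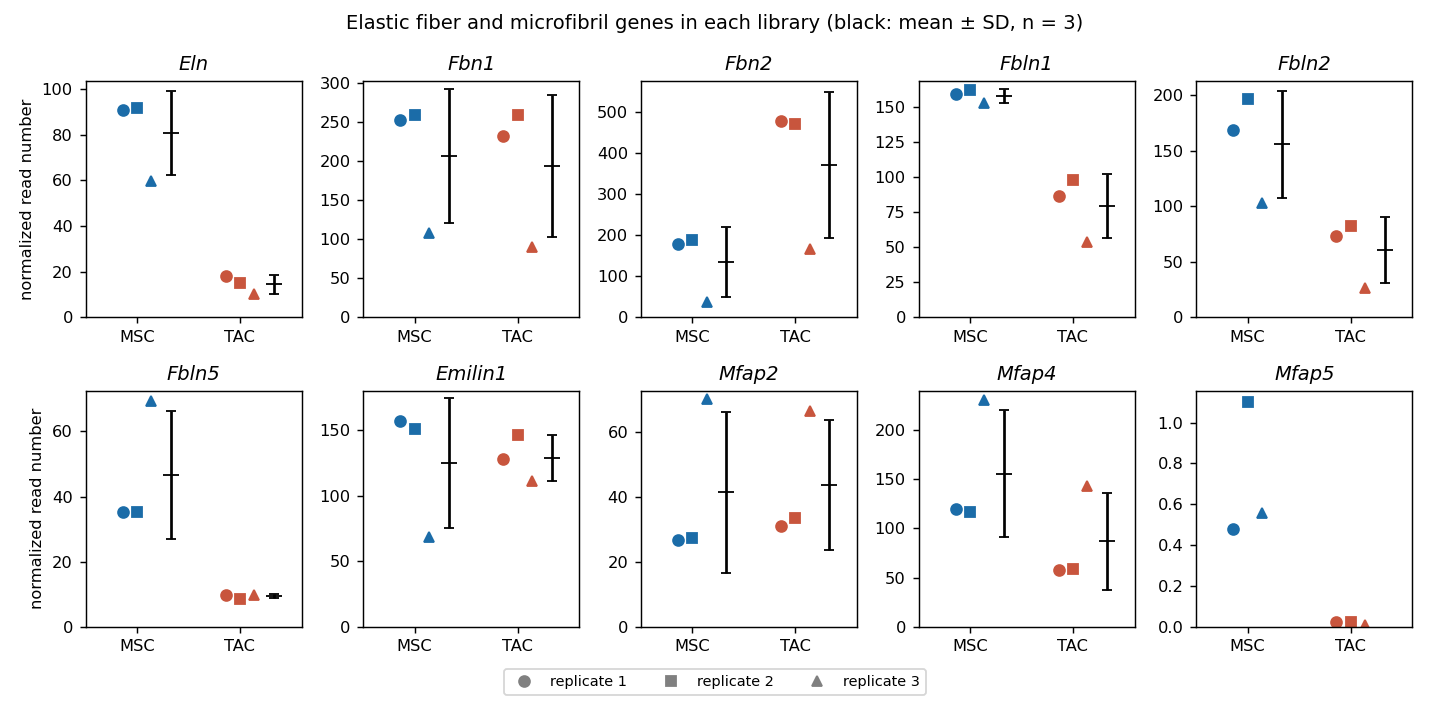
Normalized read number (vertical axis, starting at 0, its scale differing by panel) of each of the 10 genes in the 3 MSC (blue) and 3 TAC (red) libraries, with the mean ± SD in black (not drawn for Mfap5, which is at or near 0 in TAC). For Eln, Fbln1, Fbln2, Fbln5 and Mfap5 every MSC point lies above every TAC point. Replicate 3 (triangles) lies apart from the other replicates for Eln, Fbn1, Fbn2, Fbln2, Mfap2 and Mfap4 in both groups.

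Elastin, the crosslinked core protein, was the member with the lowest p-value. Eln (chromosome 5, 134702593 to 134747323, minus strand) read 90.9, 91.9 and 59.5 in the MSC libraries and 18.2, 14.9 and 10.1 in TAC. All MSC values were above all TAC values, and replicate 3 was the lowest of its group in both. These values rested on 3171 to 8944 estimated reads in MSC and on 621 to 2670 in TAC. MSC averaged 80.8 ± 18.4 (SD, n = 3) against 14.4 ± 4.05 (SD, n = 3) for TAC, a ratio of 5.61. limma put the log2 difference at -2.42 (SE 0.33, adjusted p 0.0413). Replicates 1 and 2 gave -2.40 and replicate 3 gave -2.44, and the difference between these library sets had an adjusted p of 0.865. With 1 library left out the log2 difference stayed between -2.62 and -2.20. Its adjusted p was 0.251, 0.242, 0.186 and 0.210 without replicates 1 and 2 of MSC and of TAC, fits in which 0 of the 15391 genes passed and 1028 to 1367 had an unadjusted p-value below 0.05 in limma. It was 0.0880 without TAC replicate 3, where 36 genes passed, and 0.0369 without MSC replicate 3, where 292 did.

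Fibulin 5, which links elastin to cells and to the microfibril, had the next largest log2 difference among the 9 members tested. Fbln5 (chromosome 12, 101746565 to 101819055, minus strand) read 35.4, 35.3 and 69.5 in the MSC libraries and 9.70, 8.61 and 9.66 in TAC. The TAC libraries were within 8.61 to 9.70, every MSC library was above them, and MSC replicate 3 was the highest. MSC averaged 46.7 ± 19.7 (SD, n = 3) against 9.32 ± 0.618 (SD, n = 3) for TAC, a ratio of 5.01. Its log2 difference of -2.14 (SE 0.36) had an adjusted p of 0.0768 and an unadjusted p of 0.000527 in limma. Without MSC replicate 3, in the fit where 292 genes passed, it was -1.82 with an adjusted p of 0.0376, and with each other library left out the adjusted p was 0.141 to 0.397.

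Fibulin 2, which binds elastin and fibrillin 1, read 168, 196 and 103 in the MSC libraries and 73.1, 81.8 and 26.6 in TAC (Fbln2, chromosome 6, 91212455 to 91272540, plus strand). Replicate 3 was lowest in each group, and the groups did not overlap. Its log2 difference was -1.45 (SE 0.49, adjusted p 0.301). With 1 library left out the Fbln2 difference ran from -1.74 (without TAC replicate 2) to -0.95 (without TAC replicate 3). Fibulin 1, found in basement membranes and within elastic fibers, read 159, 163 and 153 in the MSC libraries and 86.5, 97.9 and 53.7 in TAC (Fbln1, chromosome 15, 85205949 to 85286535, plus strand). MSC libraries lay within a narrow range, with a mean of 158 ± 4.98 (SD, n = 3) against 79.4 ± 22.96 (SD, n = 3) in TAC. Its log2 difference was -1.03 (SE 0.31, adjusted p 0.243). All 3 fibulins had negative log2 differences in both library sets, -0.80 (Fbln1), -1.22 (Fbln2) and -1.84 (Fbln5) in replicates 1 and 2 and -1.49, -1.91 and -2.73 in replicate 3.

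The fibrillins form the microfibril itself, and neither passed the adjusted threshold in the fit without pairing. Fibrillin 1, the main fibrillin of adult tissue, read 254, 260 and 108 in the MSC libraries and 232, 260 and 90.4 in TAC (Fbn1, chromosome 2, 125300594 to 125507993, minus strand). Libraries with the same number lay side by side, and replicate 3 was the lowest in both groups. Its log2 difference was -0.13 (95% interval -1.38 to 1.12, adjusted p 0.965). With the replicate number as a block the interval was -0.43 to 0.18 (adjusted p 0.541).

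Fibrillin 2, known best from development, read 178, 189 and 36.0 in the MSC libraries and 478, 471 and 167 in TAC (Fbn2, chromosome 18, 58008623 to 58209926 as deposited, minus strand; GENCODE M21 ends it at 58210487). Each TAC library was above the MSC library with its number, but TAC replicate 3 was below MSC replicates 1 and 2, so the groups overlapped. MSC averaged 134 ± 85.4 (SD, n = 3) against 372 ± 178 (SD, n = 3) for TAC. Its log2 difference was 1.64 (SE 0.73, adjusted p 0.444). Replicates 1 and 2 gave 1.37 and replicate 3 gave 2.18, and without MSC replicate 3 the Fbn2 difference was 0.86 (adjusted p 0.415). With the replicate number as a block, Fbn2 passed at an adjusted p of 0.0494 and the number of members past the threshold became 2, where 1.49% of all genes passed. Eln passed in that fit as well, at 0.0323, and 6 members had an unadjusted p-value below 0.05, against 20.4% of all genes.

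Because each library holds both fibrillins, their ratio per kilobase of exon was computed within it, a comparison chosen after the values were seen. Fbn2 over Fbn1 read 0.645, 0.667 and 0.306 in the MSC libraries and 1.89, 1.67 and 1.69 in TAC. Fbn1 was thus the more abundant fibrillin transcript per length in every MSC library and Fbn2 in every TAC library. The ratio averaged 0.539 ± 0.203 (SD, n = 3) in MSC against 1.75 ± 0.122 (SD, n = 3) in TAC. The exact two-sided permutation test gave p = 0.10, the smallest that 3 against 3 samples can give. Any ratio whose groups do not overlap gives this value, so for a ratio chosen after the values were seen it is a description only. Eln over Fbn1, on the same scale, read 0.537, 0.530 and 0.825 in the MSC libraries and 0.117, 0.0860 and 0.168 in TAC. Its groups did not overlap either, so the exact permutation p was again 0.10.

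Of the microfibril-associated proteins, Mfap2 and Mfap4 were tested and neither passed the adjusted threshold. MFAP4, which binds elastin and fibrillin, read 120, 117 and 230 in the MSC libraries and 58.1, 58.5 and 143 in TAC (Mfap4, chromosome 11, 61485431 to 61488900, plus strand). Each TAC library was below the MSC library with its number, and replicate 3 was the highest of its group, so the groups overlapped. Its log2 difference was -0.90 (SE 0.46, adjusted p 0.505). Replicates 1 and 2 gave -1.01 and replicate 3 gave -0.68. With 1 library left out the Mfap4 difference ran from -1.33 (without TAC replicate 3) to -0.58 (without MSC replicate 3). MAGP-1, a small protein bound along the microfibril and encoded by Mfap2, read 26.7, 27.4 and 70.0 in the MSC libraries and 30.9, 33.4 and 66.6 in TAC (chromosome 4, 141010418 to 141015984, plus strand). Replicate 3 was the highest of its group in both, the groups overlapped, and the log2 difference was 0.14 (95% interval -0.99 to 1.27, adjusted p 0.957), with an interval of -0.32 to 0.59 under the replicate block.

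Mfap5, encoding MAGP-2 (chromosome 6, 122505845 to 122529290, plus strand), was near the limit of detection and below the level required for testing. It had 17, 37 and 83 estimated reads in the MSC libraries against 0, 0 and 1 in TAC. Every MSC library held reads and the TAC group held 1 in all. Pooled over libraries and scaled to depth, MSC was 216-fold higher, with a 95% exact counting interval of 38.2 to 8610.5 that covers counting error only. In a fit without the filter on low values its adjusted p was 0.364.

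Emilin1, a glycoprotein at the interface of elastin and microfibrils, read 157, 151 and 68.3 in the MSC libraries and 129, 147 and 112 in TAC (chromosome 5, 30913402 to 30921277, plus strand). MSC replicate 3 was the lowest library and the groups overlapped. Its log2 difference was 0.12 (95% interval -0.77 to 1.02, adjusted p 0.945), with an interval of -0.47 to 0.72 under the replicate block. Replicates 1 and 2 gave -0.16 and replicate 3 gave 0.70. Emilin1 and Mfap2 were the members with opposite directions in the library sets, so 7 of 9 had the same direction, as did 61.2% of all genes.

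**Figure D2:**
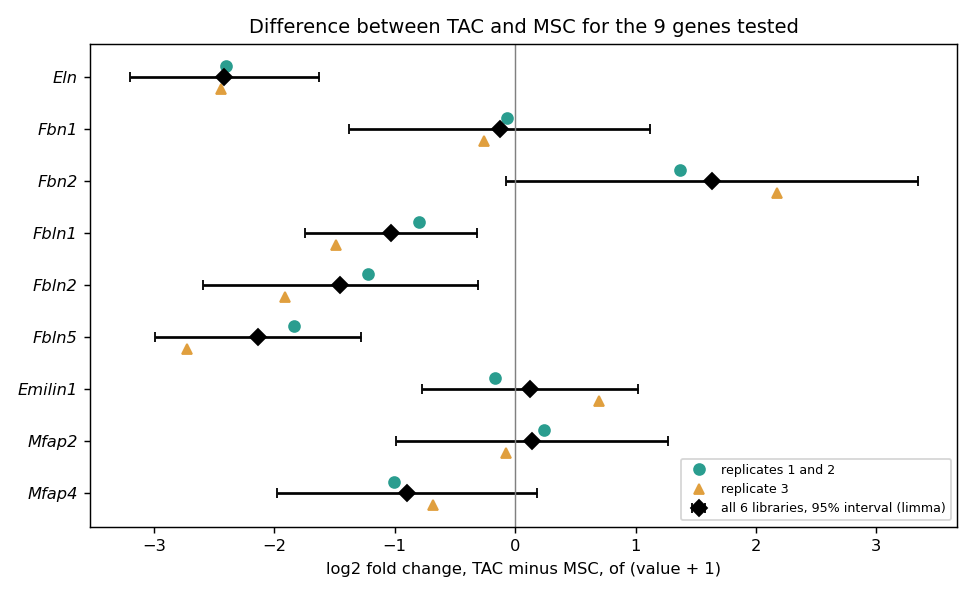
Log2 fold change, TAC minus MSC, of the value with 1 added, for the 9 genes tested, with its 95% limma interval over all 6 libraries (black), and the values within replicates 1 and 2 (green) and within replicate 3 (orange). Intervals of Eln, Fbln1, Fbln2 and Fbln5 lie below 0, and those of the other 5 genes include 0.

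Levels can be compared between genes once divided by exon length, taken from GENCODE M21 on mm10. In MSC, Mfap4 was highest at 80.9 ± 33.5 reads per kilobase (SD, n = 3) and its libraries lay above those of every other member. Fbln1 at 36.2, Mfap2 at 34.2, Emilin1 at 25.4, Fbln2 at 24.5, Fbn1 at 17.1, Fbn2 at 10.2, Eln at 9.98 and Fbln5 at 6.76 followed, and each of these overlapped its neighbour in the order. Mfap5 was lowest, at 0.134 to 0.307 in its libraries. In TAC the order was Mfap4 at 45.1, Mfap2 at 36.0, Fbn2 at 28.2, Emilin1 at 26.1, Fbln1 at 18.2, Fbn1 at 16.0 and Fbln2 at 9.50, with Emilin1 above Fbln1 in all libraries and the other neighbours overlapping. Eln, at 1.78 ± 0.501 (SD, n = 3), and Fbln5, at 1.35 ± 0.0895 (SD, n = 3), came after Fbln2 with no overlap. Eln and Fbln5 overlapped each other. Fbn2 ranked 7 in MSC and 3 in TAC.

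**Figure D3:**
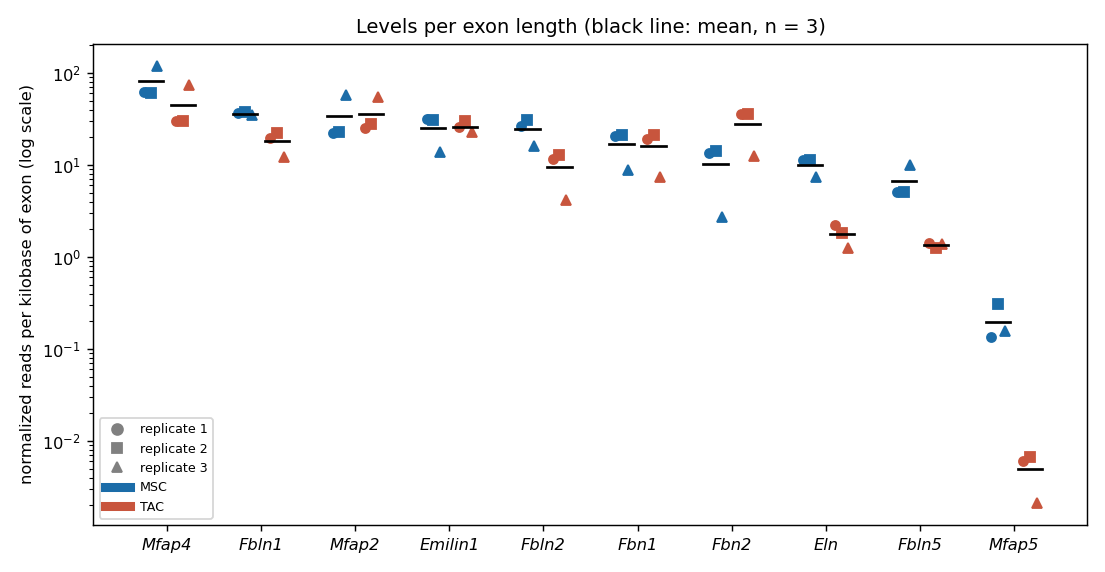
Normalized reads per kilobase of exon (log scale) of the 10 genes in each MSC (blue) and TAC (red) library, ordered by the MSC mean, with the mean as a black line. In TAC the Eln and Fbln5 points lie below those of every other gene but Mfap5, and the Mfap5 points of TAC replicates 1 and 2 stand for 0 reads, which the deposited table holds as the value of 1 read.

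Other genes that build, crosslink or degrade elastic fibers were examined from a list of 31. Of these 30 were listed and 28 tested, and 2 passed the adjusted threshold (0.422% of all genes), Ltbp2 and Ltbp4, both lower in TAC. A further count, of those with an unadjusted p-value below 0.05, came to 10 (11.9% of all genes), of which 9 were lower in TAC (6.43%). MSC values all lay above TAC values for 12 of the 28 (12.2% of all genes), and the reverse held for 2 (12.3%). The 12 include Mmp12, named after its values were seen, which had no read in MSC replicate 2 or in TAC replicates 1 and 2, so that its order there comes from the scaling of 0 reads. The median log2 difference was -0.52.

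Latent TGF-beta binding proteins, relatives of the fibrillins, had the lowest median among the 6 roles, at -1.99 over 4 genes. LTBP4, which carries fibulin 5 and elastin onto microfibrils, read 109, 113 and 125 in the MSC libraries and 18.8, 22.1 and 31.8 in TAC. The Ltbp4 groups did not overlap, and the log2 difference was -2.24 (SE 0.28, adjusted p 0.0389). LTBP2, a fibrillin 1 and fibulin 5 binder, read 68.7, 69.0 and 41.7 in the MSC libraries and 3.30, 4.72 and 5.97 in TAC. The Ltbp2 mean was 12.8 times as high in MSC, and limma gave a log2 difference of -3.42 (SE 0.37, adjusted p 0.0271). Both kept their call when replicate 3 of MSC or of TAC was left out and lost it when replicate 1 or 2 of either group was left out, with adjusted p-values of 0.143 to 0.222 for Ltbp2 and 0.189 to 0.237 for Ltbp4. In those 4 fits 0 genes of 15391 passed, and the log2 differences were -3.44 to -3.23 for Ltbp2 and -2.28 to -2.08 for Ltbp4. Ltbp1 was -1.73 (SE 0.50, adjusted p 0.228), and Ltbp3, named after its values were seen, was -0.44 (SE 0.26, adjusted p 0.574).

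Lysyl oxidases crosslink elastin and collagen. Lox read 45.6, 52.8 and 34.2 in the MSC libraries and 44.0, 39.7 and 121 in TAC. TAC replicate 3 alone was high, and the log2 difference of 0.45 (SE 0.46, adjusted p 0.768) became -0.058 without it. Of the 5 crosslinking enzymes, 0 had an unadjusted p-value under 0.05 in limma, against 11.9% of all genes, and their log2 differences ran from -0.59 to 1.13. The upper end is Loxl4, named after its values were seen, which had no read in MSC replicate 3 and a log2 difference of -0.096 in replicates 1 and 2. Efemp2, encoding fibulin 4, which recruits lysyl oxidase to elastin, read 38.0, 31.1 and 23.2 in the MSC libraries and 35.2, 34.1 and 45.9 in TAC (log2 difference 0.33, 95% interval -0.38 to 1.03, adjusted p 0.732).

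Among the other fibulins, Hmcn1, encoding the large basement membrane protein hemicentin 1, read 274, 275 and 70.6 in the MSC libraries and 36.9, 32.9 and 11.3 in TAC. The groups did not overlap, MSC replicate 3 was the lowest of its group, and its log2 difference of -2.81 (SE 0.65) had an adjusted p of 0.155 without and 0.0295 with the replicate block. Without MSC replicate 3 the Hmcn1 difference was -3.46 (adjusted p 0.0469). Efemp1 (fibulin 3) was 2.48, 3.22 and 45.2 in MSC and 0.372 and 0.312 in TAC replicates 1 and 2, with no read in TAC replicate 3. MSC replicate 3 was far above the other libraries, and the log2 difference of -2.85 (SE 1.01, adjusted p 0.330) was -1.51 in replicates 1 and 2, -1.65 without MSC replicate 3 and -3.52 without MSC replicate 1.

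Emilin2, a relative of Emilin1, was the gene on the list with an unadjusted p-value under 0.05 and a higher level in TAC. It read 63.7, 83.8 and 32.5 in the MSC libraries and 182, 184 and 89.1 in TAC. Every TAC value was above every MSC value, and the log2 difference was 1.35 (SE 0.45), with an adjusted p of 0.302 without and 0.0442 with the replicate block. Mmrn2, a multimerin of endothelial cells, read 29.7, 25.5 and 34.0 in the MSC libraries and 10.01, 10.8 and 3.59 in TAC, a log2 difference of -1.86 (SE 0.45, adjusted p 0.169).

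Thsd4, encoding ADAMTSL6, which promotes fibrillin 1 assembly, read 116, 108 and 33.8 in the MSC libraries and 12.04, 10.2 and 10.5 in TAC. MSC replicate 3 was the lowest MSC library and still above TAC, and the log2 difference was -2.68 (SE 0.49, adjusted p 0.0913). For Thsd4 the adjusted p was 0.0175 without MSC replicate 3 and 0.189 to 0.408 with each other library left out. Adamtsl4, another fibrillin 1 partner, was -1.47 (SE 0.40, adjusted p 0.201). Of the proteases that can cleave elastin, Mmp9 read 16.7, 18.1 and 21.3 in the MSC libraries and 4.99, 4.32 and 1.05 in TAC, a log2 difference of -2.28 (SE 0.53, adjusted p 0.156). Mmp2, another such protease and named after its values were seen, read 154, 152 and 203 in the MSC libraries and 219, 223 and 300 in TAC. Every TAC value of Mmp2 was above every MSC value, and the log2 difference was 0.54 (SE 0.30, adjusted p 0.542, and 0.0847 with the replicate block). With the block, 4 of the 28 genes passed the adjusted threshold, against 1.49% of all genes: Hmcn1, Emilin2, Ltbp2 and Ltbp4.

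**Figure D4:**
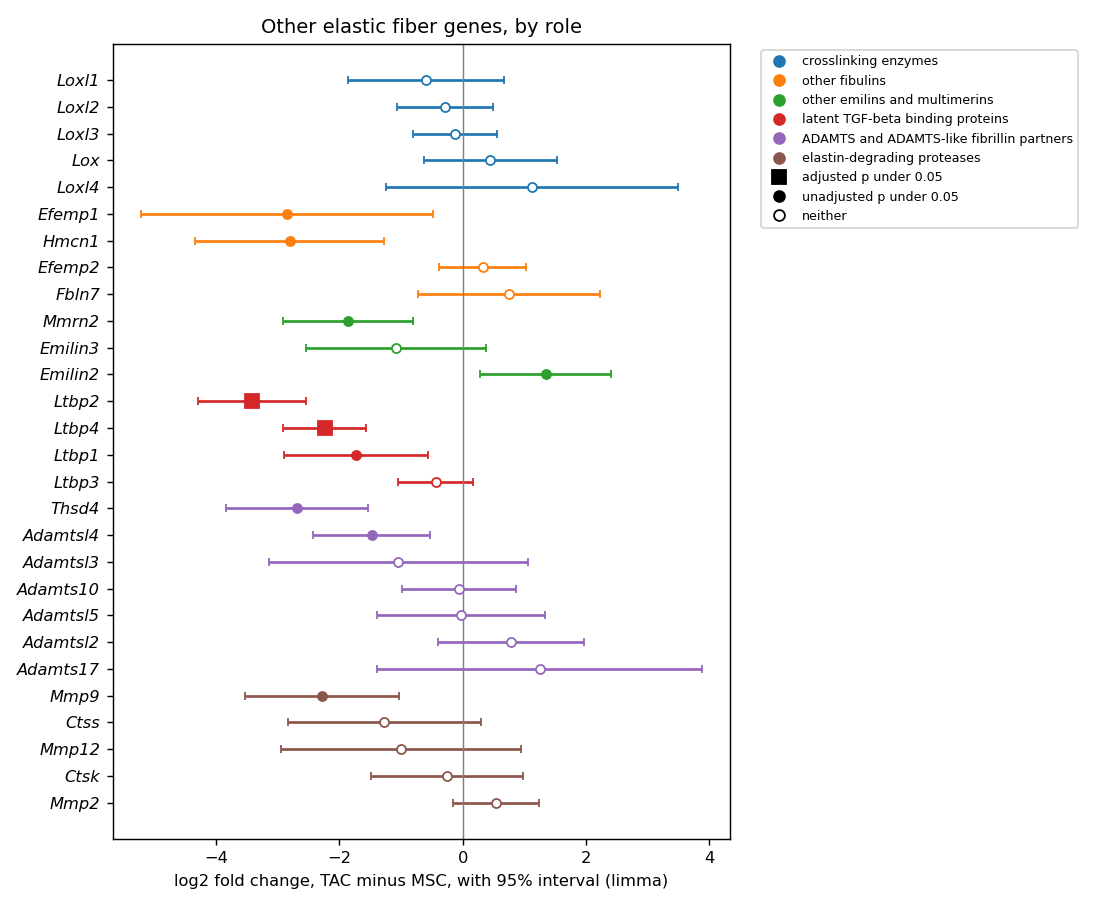
Log2 fold change, TAC minus MSC, of the value with 1 added, with its 95% limma interval for the 28 other elastic fiber genes tested, colored by role. Squares mark the 2 genes past the adjusted threshold (Ltbp2 and Ltbp4), filled circles those with an unadjusted p-value under 0.05, and open circles the rest; the 5 crosslinking enzymes are all open and their intervals include 0.

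The genes whose profile over the 6 libraries was most like that of Eln were found by the root mean square difference of the centred log2 values among 7843 genes with a mean of at least 10. They were Slc6a6 (0.115), Notch3 (0.164), Ptprb (0.188), Tns2 (0.219) and Abca3 (0.227). Slc6a6 encodes the taurine transporter, Notch3 a receptor of mural cells, Ptprb a phosphatase of endothelial cells, and Tns2 and Abca3 a focal adhesion protein and a lipid transporter. Of the members, Fbln2 ranked 119, Fbln5 132 and Fbln1 256, followed by Mfap4 at 1719, Fbn1 at 2267, Emilin1 at 3100, Mfap2 at 5271 and Fbn2 at 7370. The libraries share the split of replicate 3, so this likeness is a description.

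**Figure D5:**
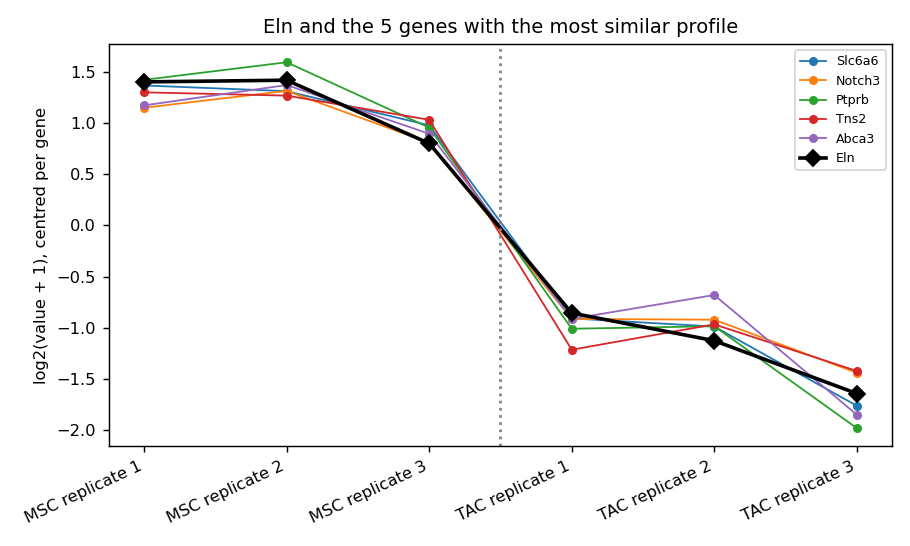
Log2 of the value with 1 added, centred on each gene's mean, in the 6 libraries for Eln (black) and the 5 genes with the smallest root mean square difference from it (0.115 to 0.227). The MSC libraries (left of the dotted line) all lie above 0 and the TAC libraries below it, with replicate 3 the lowest of its group for Eln.

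Markers of the vessel wall were examined beside Eln and the fibulins. Of 7 smooth muscle markers 6 were tested and 3 passed the adjusted threshold (Acta2, Myh11 and Tagln), each lower in TAC, as were 0.383% of all genes. With the replicate block Acta2 no longer passed (adjusted p 0.0701), while the pericyte marker Cspg4 (0.0442) and the endothelial marker Vwf (0.0323), both lower in TAC, did. The summed level of the list was 392 to 465 in MSC and 27.7 to 60.2 in TAC. Among them Cnn1 and Des had no read in at least 1 library. All 5 pericyte markers tested had MSC values above TAC values, as had 12.2% of all genes, with sums of 542 to 1135 and 107 to 131, and Rgs5 and Notch3 passed the adjusted threshold. Endothelial markers summed to 231 to 247 in MSC and 75.6 to 101 in TAC, with 4 of 7 not overlapping and lower in TAC, against 12.2% of all genes, and 0 of the 7 passed the adjusted threshold in limma, though Pecam1, Cdh5 and Vwf had an unadjusted p-value below 0.05 and were lower in TAC, as were 6.43% of all genes. Their part in the elastin and fibulin values was not tested.

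Since the use of strand in counting was not stated, reads of overlapping genes on the other strand cannot be told apart. In GENCODE M21 the exons of Eln overlap those of the antisense gene Gm30003, Fbn1 those of Gm9913, Fbn2 those of Gm26507 and Mfap4 those of Mapk7, while the other 6 members overlap no annotated gene. Coordinates are 1-based, on mm10.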

How the data were processed

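RNA from laser-captured cells was sequenced as single-end reads. By the methods and processing notes of the study, reads were trimmed and aligned to mm10 with TopHat (2.0.8), and normalization was named as RPKM, with Partek among the tools. How reads were counted, and whether strand was used, is not given in the sources used here. The values that the authors deposited did not behave as RPKM: the lowest value in each library was shared by genes of any length, and 61.4% to 72.0% of low values (up to 50 reads) were whole multiples of it to within 0.02 reads. They were used as a normalized signal, as the authors deposited it, in effect a read number with 1 added and divided by a library factor, with the upper quartile near 15.6 in every library. To estimate reads, each value was divided by the smallest one in that library and 1 was taken off. Since many were fractional, no count model was used as the main test. The planned design assumed normalized values, which suits this unit.

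limma 3.58.1 (R 4.3.3) was fitted to log2(value + 1) of the 15391 genes averaging at least 1, with a variance trend, two-sided, TAC minus MSC, and Benjamini-Hochberg adjustment over all of them. The pseudocount of 1 understates changes of low genes. Single ratios were tested by exact permutation (scipy 1.17.1). The fits were also run on simulated data, with no shift of replicate 3 or the same shift in both groups. In the real libraries the difference between groups differed between library sets for 57.2% of all genes, which the simulation left out. Alternatives changed the pseudocount, filter, scaling, variance model, samples, block or test (limma voom). The members, the list of 31 other genes and the marker lists were chosen with earlier results of these data known. All 10 members were named, and of the other genes those with an unadjusted p-value under 0.05 plus Lox, Efemp2 and Ltbp4 whatever their values, with the 5 genes most like Eln, predicted genes and clone names left out. Ltbp3, Loxl4, Mmp2 and Mmp12 were named outside this rule, after their values were seen.

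For the replicate block, the numbers in the labels were taken as pairs. Same-numbered samples deviated from their group means together across genes (correlations of 0.477, 0.465 and 0.517). Crossed labels correlated about as strongly, at 0.480 (number 2 of MSC, number 1 of TAC) and 0.462 (number 1 of MSC, number 2 of TAC). Much of this is the split of replicate 3, so the correlations cannot tell how replicates 1 and 2 should be matched. Calls made with the replicate block therefore rest on the labels for that matching. The methods give 3 mice per group but do not tie libraries to mice, so p-values measure the spread between these samples. All 10 members matched GENCODE M21 by symbol, 9 of them with equal bounds once the deposited end was lowered by 1, and 6 matched the RefSeq promoter table (GRCm38.p6).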

Additional observations from a re-analysis of the deposited data

Results flagged for a closer look

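The difference between TAC and MSC was itself different in replicate 3 from that in replicates 1 and 2 for 6 of the 9 members tested, by the interaction term in limma at an adjusted p under 0.05, where 57.2% of all genes tested passed. The error of this test is the small spread between replicates 1 and 2. The log2 fold change in replicate 3 minus that in replicates 1 and 2 was 0.81 for Fbn2, -0.69 for Fbln1, -0.69 for Fbln2, -0.89 for Fbln5, 0.86 for Emilin1 and 0.33 for Mfap4. For Fbn2, Fbln1, Fbln2, Fbln5 and Mfap4 both sets gave 1 direction, and for Emilin1 they did not. Groups of 3 are too small for a search for outlying libraries.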

How the results depend on the processing

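The number of members past the adjusted threshold, 1 in the fit reported, was 0 with a pseudocount of 0.1, without the variance trend, with the mean of replicates 1 and 2 as 1 sample and with limma voom. It was 2 with the replicate block, and 6 with the library set as a batch term (11.8% of all genes) and in replicates 1 and 2 only (44.2%). When 1 library was left out it ran from 0 to 2, being 2 without MSC replicate 3 (292 of all genes), 0 without TAC replicate 3 (36) and 0 without each other library, where 0 of all 15391 genes passed. In every fit with a count of 0, 4 to 6 members had an unadjusted p under 0.05 in limma, as had 610 to 3575 of all genes. The number at an unadjusted p under 0.05, which was 4, became 8 in replicates 1 and 2 only, where that of all genes rose from 1824 to 7983. Of the other elastic fiber genes, 2 passed in the fit reported, 1 with median-ratio scaling or without the variance trend, 4 with the replicate block (1.49% of all genes), 10 with the batch term (11.8%), 16 in replicates 1 and 2 only (44.2%), and 0 with the mean of replicates 1 and 2 or with voom. When 1 library was left out this count ran from 0 (without replicate 1 or 2 of either group) to 4 (without MSC replicate 3), and fits with 0 had 7 to 12 of these genes at an unadjusted p under 0.05 in limma. Those at an unadjusted p under 0.05 rose from 10 to 19 in replicates 1 and 2 only, beside the same 7983 of all genes. The member median ran from -1.02 to -0.58 when 1 library was left out.

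Eln, Fbn2, Fbln1, Fbln2, Fbln5 and Mfap4 kept their direction in each of 19 alternatives, and Eln passed in 10 of them (adjusted p 3.92e-07 to 0.530). Directions turned for Fbn1, Mfap2, Emilin1 and Lox. Fbn1 became 0.070 and 0.087 when MSC replicate 1 or 2 was left out and 0.35 without TAC replicate 3, and in the same fits Mfap2 became -0.096, -0.078 and -0.21. Emilin1 became -0.16 in replicates 1 and 2 only and -0.26 without MSC replicate 3, and Lox -0.23 in replicates 1 and 2 only and -0.058 without TAC replicate 3. With 1 library left out, Fbn1 ran from -0.54 to 0.35, Emilin1 from -0.26 to 0.33, Mfap2 from -0.21 to 0.58 and Lox from -0.058 to 0.74. The number of members that differed between library sets fell from 6 to 3 without the variance trend. The replicate block gave calls to Fbn2, Hmcn1 and Emilin2, changed the call of no other elastic fiber gene named, ended that of the smooth muscle marker Acta2 (0.0701) and gave calls to the markers Vwf (0.0323), Cspg4 (0.0442) and Pax9 (0.0442). The cause of these changes was not tested. Mfap5 was below the mean level required for testing, and its TAC level rests on 1 read.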

Other observations

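Marker lists of other cell types gave the following levels, summed over each list. Dental follicle and periodontal ligament markers summed to 83.9 to 126 in MSC and 68.8 to 93.2 in TAC. Of these, 2 of 5 tested, Pthlh and Aspn, had every MSC value above every TAC value, against 12.2% of all genes. Pthlh was 10.005 to 12.2 in MSC and 2.06 to 3.39 in TAC, and Aspn 3.54 to 6.73 and 0.561 to 2.11. Postn, a matrix protein of the periodontal ligament, read 74.8, 63.4 and 105 in the MSC libraries, in the order of the replicates, and 57.5, 63.9 and 87.3 in TAC. Adventitial fibroblast markers summed to 19.4 to 197 in MSC and 10.9 to 25.8 in TAC, with Ly6a and Cd34 at 90.9 and 95.5 in MSC replicate 3. Among them 2 of 3 tested, Pi16 and Ly6a, had every MSC value above every TAC value, against 12.2% of all genes, and Cd34 overlapped. Odontoblast markers summed to 811 to 5300 in MSC and 4465 to 4815 in TAC.

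Dental epithelium markers summed to 293 to 3350 in MSC and 2071 to 3052 in TAC, with 4 of 7 lower in every MSC library than in any TAC library, against 12.3% of all genes. Schwann cell markers summed to 19.2 to 43.2 in MSC and 6.11 to 19.2 in TAC, and macrophage and leukocyte markers to 58.8 to 117 and 34.2 to 92.9. The dental mesenchyme list summed to 3129 to 11480.0 in MSC and 9358 to 12710.0 in TAC, of which Col1a1 made 1554 to 9609 and 8030.5 to 11167.

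The ratio of Ltbp4 to Eln per kilobase of exon was 1.51, 1.54 and 2.62 for the MSC libraries and 1.296, 1.85 and 3.93 for TAC. Replicate 3 was the highest of its group in both, the groups overlapped, and the exact two-sided permutation p was 0.70.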
